A study of Mus musculus with 17 samples.

Results

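The contacts of the CTCF site beside the alpha-globin genes were compared with those of the CTCF site beside the beta-globin genes in mouse embryonic stem (ES) cells, a cell type in which neither locus is active. They were measured by Tri-C, a chromosome conformation capture method in which cross-linked chromatin is cut with the restriction enzyme NlaIII and ligated, and reads that hold the chosen viewpoint fragment are enriched with oligonucleotides. Each entry counted the reads that joined the viewpoint with a pair of other fragments, so a single entry is a 3-way contact. The ES cells were the E14 line of strain 129/Ola, with 7 libraries that the labels place in 3 biological replicates of 3, 2 and 2 technical replicates. They made up 7 of the 17 libraries of the series. The other 10 libraries, in 3 biological replicates, were Ter-119+ erythroid cells, selected from spleen cells of C57BL/6 females given phenylhydrazine, which causes anaemia and so enriches the spleen in red cell precursors. Both viewpoints were read from the same ES libraries, so each alpha value was paired with the beta value of its replicate. The labels do not say whether the biological replicates were separate cultures, so the p-values below reflect the spread between samples, which may be technical.

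CTCF is a zinc finger protein that binds DNA in an orientation-dependent way and halts cohesin as it draws chromatin into loops. Sites bound by CTCF often lie at the borders of chromatin domains, and pairs of sites that face each other often contact. At the alpha locus such sites flank the globin genes and their enhancers, while at the beta locus they flank the genes and the locus control region within a cluster of olfactory receptor genes. Globin genes are transcribed in red cell precursors and are silent in ES cells.

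The alpha viewpoint appeared as a gap in the listed fragments at 32136092 to 32138888 on chromosome 11 of mm9, 39.5 kb before the embryonic gene Hba-x. The beta viewpoint appeared as a gap at 110954158 to 110956820 on chromosome 7. At both, the globin genes lie at higher coordinates, which is called the gene side here, and lower coordinates are the far side. Around these genes the neighbourhoods differ. In the RefSeq annotation of GRCm38.p6, a later build used for the order of genes only, 0 of the 20 nearest protein-coding genes on either side of the alpha cluster were olfactory receptor genes. At the beta cluster they were 20 of 20 on the far side and 16 of 20 on the gene side. The nearest neighbours of the alpha cluster were Nprl3 at lower coordinates, which encodes a subunit of a complex that restrains mTORC1 and holds the main alpha-globin enhancers in its introns, and Hbq1a at higher coordinates, which encodes a globin-like protein.

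The sequences of the viewpoints are not shown, because no mm9 genome was used here. One sequence bears on what the contacts can resolve at the alpha genes. The 250 bases before the start of Hba-a1 at chr11:32283422-32283671 of GRCm38.p6 (RefSeq, plus strand), read 5′ to 3′, are shown because the duplicated gene Hba-a2 carries nearly the same stretch:
Hba-a1: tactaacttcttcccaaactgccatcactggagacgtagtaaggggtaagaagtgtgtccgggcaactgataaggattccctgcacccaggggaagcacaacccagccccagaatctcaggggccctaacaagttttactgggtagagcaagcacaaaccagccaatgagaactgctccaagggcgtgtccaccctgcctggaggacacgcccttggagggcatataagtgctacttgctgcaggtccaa
All but the first 3 of these bases, 247 in all, stand in the same order before Hba-a2. They hold 0 copies of CATG, the sequence that NlaIII cuts, so the enzyme does not separate parts of this stretch. Reads that lie wholly within the shared bases cannot be told apart between the copies, and contacts at Hba-a1 and Hba-a2 are uncertain to that extent. Whether reads there reach bases that differ was not tested.

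The summed counts were 382914, 129858 and 176121 at the alpha site in replicates 1, 2 and 3, against 785662, 93686 and 125570 at the beta site. Fragment pairs within 2 Mb were read 4.51 to 5.81 times on average per library at alpha and 5.60 to 8.06 times at beta, and without molecular identifiers such repeats are not separate molecules. The 95% Wilson intervals of the side shares below reached between 0.369 and 2.29 percentage points to either side. They took every read as independent and entered each pair once per fragment. These intervals are therefore too narrow even for counting error.

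ES replicate 1 stood apart at the beta locus in the fragments expected from erythroid cells. For this check each fragment pair was counted once per library, and the erythroid profile was scaled to the replicate's total within 200 kb. Fragments within 200 kb of the beta site with 10 or more expected pairs were looked up. Of these, 6 of 1106 (0.542%) had 2 or fewer pairs in replicate 1. The shares were 18 of 123 (14.6%) in replicate 2 and 16 of 115 (13.9%) in replicate 3. At the alpha site the same shares were 0.480%, 0.620% and 0.930%. With HS2, the other beta viewpoint, they were 0.412%, 11.9% and 11.2%. The same limits were used at unlike depth. The beta site had 785662 counts in replicate 1, against 93686 and 125570 in replicates 2 and 3. What depth adds to these shares was not tested. Replicates 2 and 3 also missed fragments of each other at beta, 8.28% of those expected from replicate 2 in replicate 3 and 9.94% of those expected from replicate 3 in replicate 2, so not all of the absence sets replicate 1 apart. Replicate 1 in turn missed 3.15% and 2.78% of the fragments expected from replicates 2 and 3 at the beta site. With HS2 it missed 7.21% and 8.86% of them. There replicate 3 missed 6.67% of those expected from replicate 2, and replicate 2 missed 5% of those expected from replicate 3. With HS2, replicate 1 therefore did not stand apart from the other ES replicates in this direction. All 3 replicates carry the same cell line label, and the cause was not tested. Beta results are therefore given with and without replicate 1. A second point concerns shared entries, matched by listed coordinates, which are in doubt for off-chromosome fragments as given with the totals below. Of the off-chromosome pairs in an ES library, 0.821% to 2.46% at alpha and 2.93% to 21.5% at beta were also listed in any of the 10 erythroid libraries. With the single erythroid library that shared most, they were 0.234% to 0.735% at alpha and 0.858% to 8.53% at beta, and technical libraries of one replicate shared 0.223% to 0.346% at alpha and 0.368% to 0.873% at beta. The highest value was that of replicate 2, technical replicate 2, and leaving this library out is reported with the alternatives.

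The alpha site held its contacts close, and the beta site spread them over megabases. Of contacts with both fragments between 1 kb and 2 Mb from the viewpoint, 72.7%, 73.5% and 67.0% lay within 100 kb of the alpha site in replicates 1, 2 and 3. At the beta site 44.6%, 29.4% and 26.5% did. Every alpha value was above every beta value. The means were 71.1% ± 3.55 at alpha and 33.5% ± 9.73 at beta (SD, n = 3), a paired difference of 37.6 ± 8.42 percentage points in the same direction in 3 of 3 replicates (exact two-sided sign-flip p = 0.25, the smallest that 3 pairs allow). Without replicate 1 the beta mean was 27.9% and the difference 42.3 points. With contacts averaged per listed fragment of each band, which gives the wide distant bands little weight, the shares were 98.2% ± 0.301 at alpha and 91.7% ± 2.95 at beta, a difference of 6.42 points. Technical libraries differed little, from 66.5% to 73.6% over all alpha libraries and, at beta, from 43.2% to 46.5% in replicate 1, 29.1% to 29.6% in replicate 2 and 26.3% to 26.7% in replicate 3.

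The fall of contacts with distance was steeper at alpha. On a plot of log10 contacts per kb against log10 distance from 5 kb to 2 Mb, the slope was -1.22, -1.22 and -1.14 at the alpha site in replicates 1, 2 and 3, against -0.808, -0.598 and -0.588 at the beta site. The values did not overlap. The paired difference was -0.528 ± 0.104 (SD, n = 3, exact sign-flip p = 0.25), and -0.584 without replicate 1. On the gene side the slopes were -1.18, -1.18 and -1.08 at alpha and -0.861, -0.784 and -0.712 at beta. On the far side they were -1.26, -1.24 and -1.18 at alpha and -0.736, -0.298 and -0.459 at beta, so the shallowest decay was on the far side of the beta site in replicate 2. The difference in slope was -0.362 ± 0.0405 on the gene side and -0.730 ± 0.213 on the far side (SD, n = 3), or -0.383 and -0.835 without replicate 1.

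**Figure D1:**
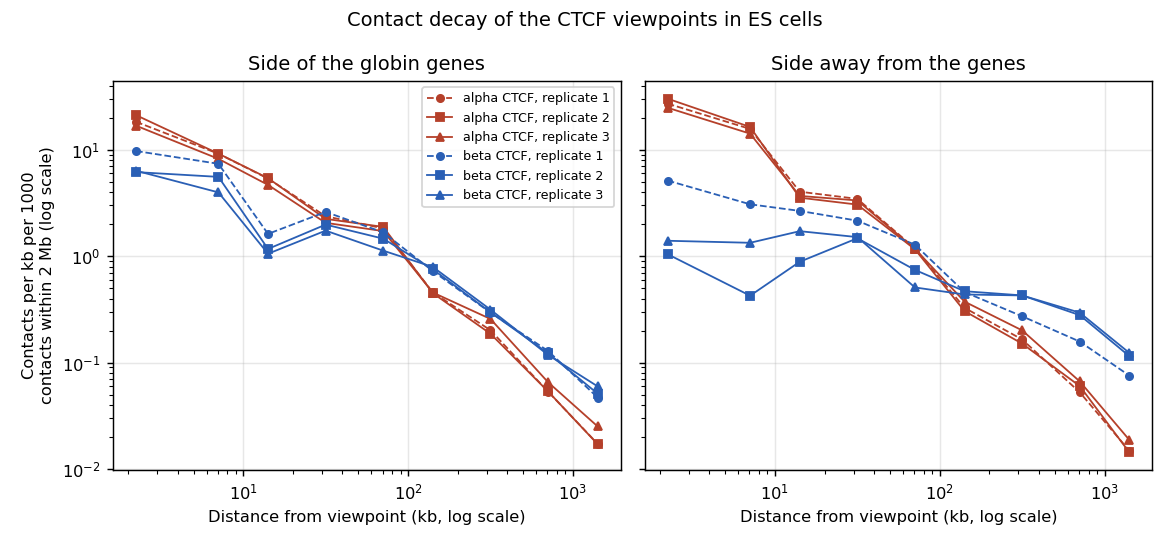
Contacts per kb per 1000 contacts within 2 Mb (log scale) by distance from the viewpoint in kb (log scale), on the gene side (left) and the far side (right), with 1 line for each ES replicate of the alpha CTCF site (red) and the beta CTCF site (blue); replicate 1 is dashed. On the far side the alpha lines start above all beta lines and end below them, and the beta lines of replicates 2 and 3 lie below that of replicate 1 within 100 kb.

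The nearest stretch of the far side differed widely between the sites. Within 1 to 5 kb on the far side the alpha site had 109, 121 and 99.5 contacts per 1000 in replicates 1, 2 and 3. The beta site had 20.6, 4.18 and 5.59 there. Alpha was above beta in every replicate, and beta replicate 1 was above beta replicates 2 and 3. At 5 to 10 kb on the far side the values were 78.6, 82.0 and 71.0 at alpha and 15.4, 2.13 and 6.69 at beta. Fragments nearly absent from beta replicates 2 and 3 lay in this band. With pairs counted once per library, the fragment at -7.78 kb had 124, 2 and 0 pairs in replicates 1, 2 and 3. The fragment at -9.67 kb had 82, 1 and 1. What their absence adds to the low beta values was not tested. On the gene side the gap was narrower, with 73.5, 84.8 and 67.5 contacts per 1000 at alpha and 39.0, 24.7 and 25.5 at beta within 1 to 5 kb. The tables listed 30 fragments at alpha and 13 at beta in this band on the far side, and 23 at alpha and 16 at beta on the gene side. These fragments were listed in any library, erythroid ones included, at either viewpoint of the locus. Their numbers do not show which fragments each ES replicate detected, and their part in the gap was not tested.

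Beyond 100 kb the order turned. At 500 to 1000 kb on the far side the alpha site had 26.3, 30.1 and 33.3 contacts per 1000, against 78.8, 139.7 and 147.3 at the beta site. At 1000 to 2000 kb on the far side it had 14.8, 14.3 and 18.7, against 75.4, 114.9 and 123.3. On the gene side at 1000 to 2000 kb it had 17.2, 17.1 and 25.1, against 47.0, 51.1 and 59.7. In all 3 of these bands every alpha value was below every beta value, and on the gene side beta replicate 1 was close to the others.

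In bins of 20 kb, the edgeR quasi-likelihood test with the replicate as a block called 6 of 200 bins higher at alpha (3% of bins) and 73 lower (36.5% of bins) at an adjusted p under 0.05. Each count was relative to all contacts within 2 Mb. The higher bins were -20 to 0, 0 to 20, -60 to -40, 40 to 60 and 60 to 80 kb from the site, and 1 far bin at -1960 to -1940 kb with under 1 contact per 1000 in any replicate. The lower calls were 46 of 90 bins beyond 200 kb on the far side, 23 of 90 beyond 200 kb on the gene side, and 4 of 20 nearer. Alpha contacts near the site took up most of the total, and the median bin stood at -1.04 on the log2 scale, and with TMM factors, which centre the bins, it stood at 0.03. With TMM factors 29 bins were lower and 6 higher beyond 200 kb on the far side, and on the gene side beyond 200 kb 2 were lower and 5 higher. TMM factors shift all bins alike, so these counts are relative to the median bin. Relative to the whole table, 38 bins were lower and 2 higher beyond 200 kb on the far side, and 7 were lower and 1 higher on the gene side. Without replicate 1, 8 bins were higher and 42 lower.

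The bin from -20 to 0 kb had the clearest excess at alpha among the nearby bins. It held 228, 239 and 207 contacts per 1000 at the alpha site, on chromosome 11 from 32117490 to 32137489, against 62.6, 15.2 and 29.5 at the beta site, on chromosome 7 from 110935489 to 110955488. All 3 alpha values lay above all 3 beta values, and the log2 difference was 2.88 (SE 0.40, adjusted p = 0.000693 in edgeR). Fragments nearly absent from beta replicates 2 and 3 lay in this bin too, between -7.78 and -17.7 kb. What their absence adds to the difference was not tested. The bin from -60 to -40 kb held 51.1, 54.4 and 51.4 per 1000 at alpha, against 24.7, 10.2 and 12.96 at beta, a log2 difference of 1.82 (SE 0.31).

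The largest differences in the other direction lay about a megabase away on the far side. The bin from -1140 to -1120 kb held 0.133, 0.438 and 0.217 contacts per 1000 at alpha and 4.07, 10.8 and 14.5 at beta, a log2 difference of -5.19 (SE 0.43, adjusted p = 0.000214 in edgeR). The bins from -1100 to -1080 kb and from -1180 to -1160 kb differed by -4.86 (SE 0.52) and -4.64 (SE 0.82). In each of the 3 bins the beta value was lowest in replicate 1 or 2 and all beta values were above all alpha values. With TMM factors the first of them stood at -4.11.

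**Figure D2:**
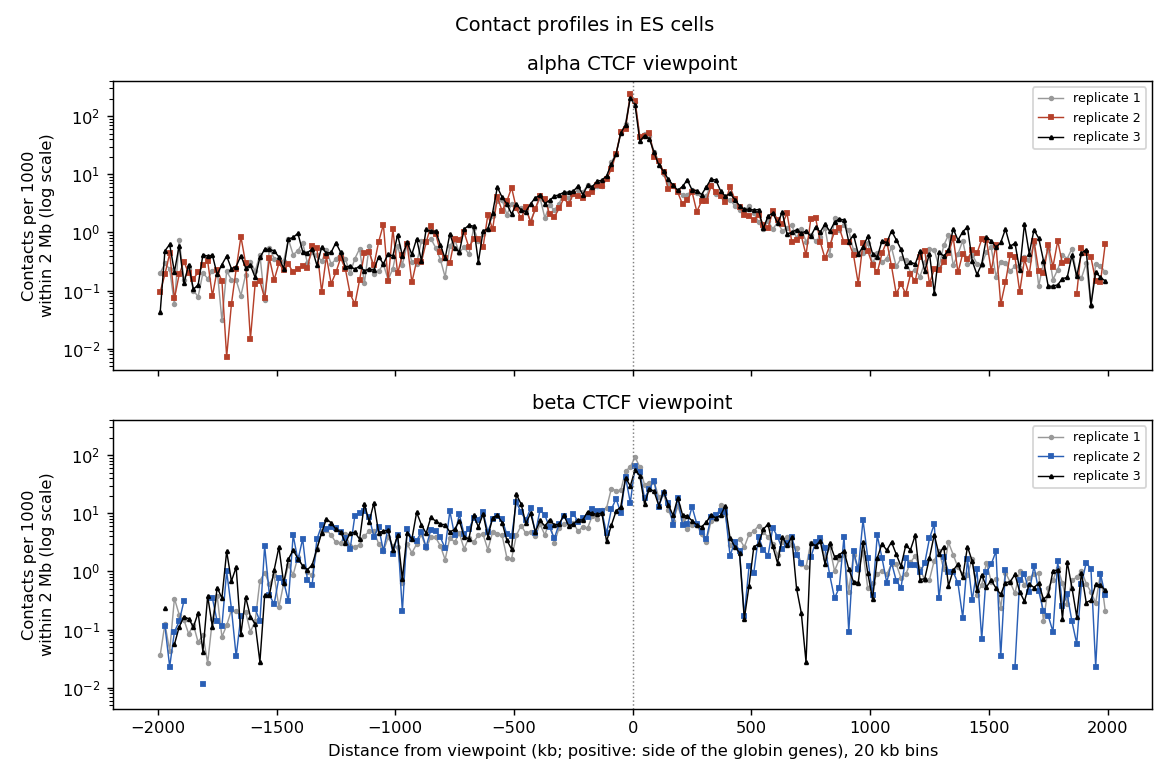
Contacts per 1000 within 2 Mb (log scale) in 20 kb bins by signed distance from the alpha site (top) and the beta site (bottom), positive toward the globin genes, with 1 line for each ES replicate; bins at 0 are not drawn. The alpha profile is narrow and nearly even on both sides, and the beta profile carries a broad shoulder on the far side that drops in its outermost part.

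Each profile also had distant bins above their surroundings in all 3 replicates. At the alpha site the bin from -580 to -560 kb, on chromosome 11 from 31557490 to 31577489, held 3.48, 4.02 and 5.99 contacts per 1000, which was 1.75, 2.14 and 2.82 times the median of the 10 bins around it. The bin from 1680 to 1700 kb reached 2.55, 2.41 and 2.88 times that median with 189, 99 and 157 counts, and the bin from -960 to -940 kb 2.10, 1.72 and 1.59 times. At the beta site the bin from 380 to 400 kb, on chromosome 7 from 111335489 to 111355488, held 9.55, 10.6 and 13.5 per 1000, or 2.40, 3.12 and 2.82 times its median. The beta bin from 960 to 980 kb reached 2.21, 5.50 and 2.34 times, and that from -1760 to -1740 kb rested on 12 counts in replicate 2. These bins were picked for their height, so the ratios are a description.

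Over the whole 2 Mb no steady difference in side was seen, and its sign depended on how contacts were weighted. The gene side took 48.6%, 49.2% and 48.4% of contacts at alpha, against 52.7%, 47.4% and 45.7% at beta. The mean difference was 0.142 ± 3.68 percentage points (SD, n = 3, exact sign-flip p = 1), and 2.25 without replicate 1. With each fragment pair counted once it was 4.55 points, and with contacts averaged per listed fragment, which weights the nearest bands most, it was -21.5 points, and in both the alpha and beta values were apart. The leanings at short and at long range were opposite.

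Within 200 kb the beta site leaned to the gene side more than the alpha site did. The gene side took 47.4%, 48.3% and 46.4% at alpha, against 57.9%, 65.5% and 62.9% at beta, and no alpha value reached a beta value. The paired difference was -14.7 ± 3.66 percentage points (SD, n = 3, exact sign-flip p = 0.25), or -16.8 without replicate 1. It was -8.22 with each fragment pair counted once, where alpha stood at 49.4%, 51.5% and 48.4%, and -22.9 per listed fragment. The lean of the beta site was strong within 10 kb. At 1 to 5 kb the gene side took 40.3%, 41.2% and 40.4% at alpha and 65.5%, 85.5% and 82.0% at beta. At 5 to 10 kb it took 36.9%, 36.0% and 36.7% at alpha and 70.6%, 92.9% and 74.9% at beta. Replicate 1 had the lowest beta share in both bands, and it was still above all alpha shares. At 5 to 10 kb, fragments nearly absent from replicates 2 and 3 lay at -7.78 and -9.67 kb, and at 9.80 kb on the gene side. Their part in the lean of these replicates was not tested.

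At 10 to 20 kb alpha was above beta in 3 of 3 replicates, with 57.0%, 60.4% and 55.9% on the gene side at alpha and 37.8%, 56.9% and 38.0% at beta, and the ranges overlapped. At 20 to 50 kb it was 40.7%, 42.3% and 38.1% at alpha, against 54.7%, 57.3% and 53.5% at beta. From 50 to 100 kb the ranges overlapped, with means of 60.7% ± 1.19 at alpha and 63.9% ± 6.47 at beta (SD, n = 3). At 100 to 200 kb both sites leaned to the gene side, with 58.2%, 59.6% and 54.9% at alpha and 61.2%, 61.6% and 64.5% at beta. The values there did not overlap.

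Farther out the beta site leaned away from the genes, apart from replicate 1 at 200 to 500 kb, and the alpha site stayed near even or on the gene side. At 200 to 500 kb the gene side took 55.0%, 55.3% and 56.2% of contacts at alpha, against 52.0%, 41.0% and 42.4% at beta. At 500 to 1000 kb it took 50.4%, 47.1% and 49.6%, against 44.9%, 30.5% and 28.6%. At 1000 to 2000 kb it took 53.7%, 54.4% and 57.3%, against 38.4%, 30.8% and 32.6%. The alpha and beta values overlapped in none of these 3 bands, beta replicate 1 was the beta value closest to alpha in each, and without replicate 1 the differences were 14.1, 18.8 and 24.1 percentage points, against 10.4, 14.3 and 21.2 with it.

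**Figure D3:**
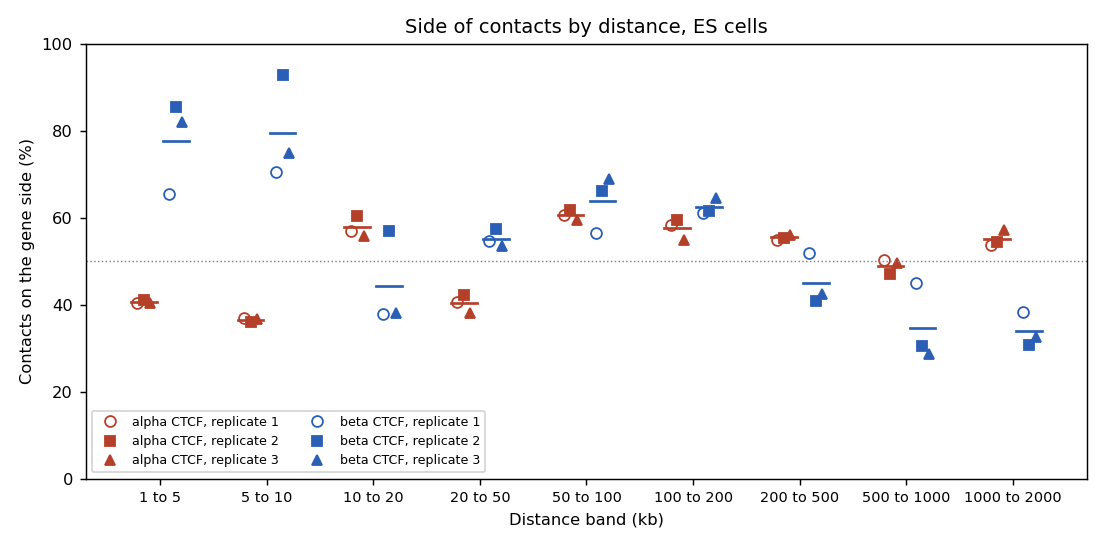
Share of contacts on the gene side in percent by distance band in kb, with a point for each ES replicate (open circles for replicate 1), bars for the means, and alpha (red) left of beta (blue). Beta points lie above alpha points at 1 to 10 kb and below them from 200 kb outward.

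Erythroid cells, where both loci are active, gave a smaller gap in the near share and the opposite gap in the far side shares. The near share was 79.4% ± 1.62 at alpha and 61.0% ± 2.46 at beta in erythroid cells (SD, n = 3), a difference of 18.4 points against 37.6 in ES cells, with no overlap between the replicate differences (exact two-sided permutation p = 0.1, the smallest for 3 against 3). The slope differed by -0.294 between the sites in erythroid cells, against -0.528 in ES cells (exact permutation p = 0.1). Gene side shares beyond 200 kb are given with the flagged results.

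Among the named elements of the alpha locus, contacts were set against the window at the same distance on the other side of the same site, which compares distances but not sequences. R1, R2, R3, Rm and R4 are enhancer elements, known for driving the alpha genes in red cells. R2, at 32149517 to 32152516 on chromosome 11 of mm9, held 22.2, 22.2 and 15.7 contacts per 1000 in replicates 1, 2 and 3, against 12.9, 11.6 and 13.1 in its mirrored window, with no overlap and a mean log2 ratio of 0.66 ± 0.35 (SD, n = 3). R2 is also a capture viewpoint of the series, and what that adds to its counts was not tested. R4, at 32167517 to 32170516, was the lowest of the 5 against its mirror, with 1.69, 1.497 and 1.40 per 1000, against 6.92, 6.67 and 8.11, a log2 ratio of -2.24 ± 0.26. R1 and R3 stood at -0.60 ± 0.05 and -0.39 ± 0.25, below their mirrors in 3 of 3 replicates, while Rm was at -0.22 ± 0.63 with both signs among its replicates. R2 and R3 are centred at 10 to 20 kb, where the gene side took 57.8% of all alpha contacts on average. R1 is centred at 5 to 10 kb, where it took 36.5%, and Rm and R4 at 20 to 50 kb, where it took 40.4%. All 5 ratios include the lean of their band.

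The globin genes and the CTCF sites beyond them stood above their mirrors. The embryonic gene Hba-x was at 0.34 ± 0.22 on the log2 scale, and of the adult genes, which encode the alpha chain of haemoglobin, Hba-a1 was at 0.48 ± 0.23 and Hba-a2 at 0.46 ± 0.43 (SD, n = 3). CTCF +44, at 32219517 to 32222516 past the adult genes, held 6.998, 3.91 and 5.46 contacts per 1000, against 3.19, 2.19 and 2.87 in its mirror, a log2 ratio of 0.97 ± 0.15. CTCF +48, at 32223517 to 32226516, held 4.72, 5.08 and 4.97, against 2.44, 2.15 and 2.17, a log2 ratio of 1.13 ± 0.16. For CTCF +44 and CTCF +48 no replicate overlapped its mirror. Hba-a2 in replicate 2 was nearly level, at 9.96 per 1000 against 9.84. Hba-a2 and both CTCF windows lie at 50 to 100 kb, where the gene side took 60.7% of all alpha contacts on average. Their ratios include that lean. Hba-x and Hba-a1 lie at 20 to 50 kb, where the gene side took 40.4%. Of all 32 windows of 3 kb on the gene side, 43.8% were above the mirror in 3 of 3 replicates and 37.5% were below, so being above it in every replicate was common, and the exact sign-flip p was 0.25 at best.

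At the beta locus the ranges were wider. The adult beta genes, which encode the beta chain of adult haemoglobin and were taken as 110959489 to 110981488 on chromosome 7 of mm9, held 99.8, 70.2 and 53.5 contacts per 1000, against 63.5, 21.8 and 38.3 in the mirrored range, a log2 ratio of 0.94 ± 0.65 (SD, n = 3), or 1.09 without replicate 1. The locus control region, the cluster of enhancers that drives the beta genes, was taken as 111005489 to 111027488 and held 38.3, 31.0 and 25.0, against 27.1, 15.02 and 15.8, a log2 ratio of 0.73 ± 0.28, or 0.85 without replicate 1. The embryonic beta genes lay near their mirror, at -0.10 ± 0.06, with a log2 ratio of -0.07 without replicate 1. The adult range and the locus control region were above their mirrors in 3 of 3 replicates, as were 3 of the 4 ranges of 22 kb that could be set out (75%). The locus control region lies at 50 to 100 kb, where the gene side took 63.9% of all beta contacts on average. The embryonic range lies at 20 to 50 kb, where it took 55.2%, and the adult range crosses bands with means from 44.2% to 79.5%. These ratios include the lean of their bands. The locus control region also holds the HS2 capture viewpoint.

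Pairs of fragments contacted together lay mostly on one side of the viewpoint at both loci. Among pairs within 2 Mb, 21.3%, 11.5% and 21.9% spanned the alpha site in replicates 1, 2 and 3, with a fragment on either side. The beta values were 18.5%, 9.29% and 16.3%. The side shares alone would give 49.96% at alpha and 49.8% at beta on average. Alpha was above beta in 3 of 3 replicates by 3.54 ± 1.83 percentage points (SD, n = 3, exact sign-flip p = 0.25), but replicates varied more than the sites did, and the ranges overlapped. Without replicate 1 the difference was 3.90 points, and with each fragment pair counted once it was 6.797 points.

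Most same-side pairs were close neighbours, and what incomplete digestion adds to them was not tested. Of same-side pairs, 61.2%, 80.0% and 59.4% lay within 5 kb of each other at alpha, against 52.3%, 68.9% and 52.1% at beta. Replicate 2 had the most of these at both sites and the fewest spanning pairs. Among pairs at least 20 kb apart, 46.5%, 45.9% and 44.9% spanned the alpha site, against 38.6%, 30.6% and 33.4% for the beta site. The gap widened to 11.6 ± 3.74 percentage points (SD, n = 3, exact sign-flip p = 0.25). No alpha value met a beta value, and the alpha replicates came within 2 points of each other. This filter removes every same-side pair with both fragments within 20 kb of the site, but keeps some spanning pairs there. At 1 to 5 kb alone lay 18.5% of contacts at alpha and 3.98% at beta, so it acts unequally on the sites. What the filter adds to the gap was not tested.

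**Figure D4:**
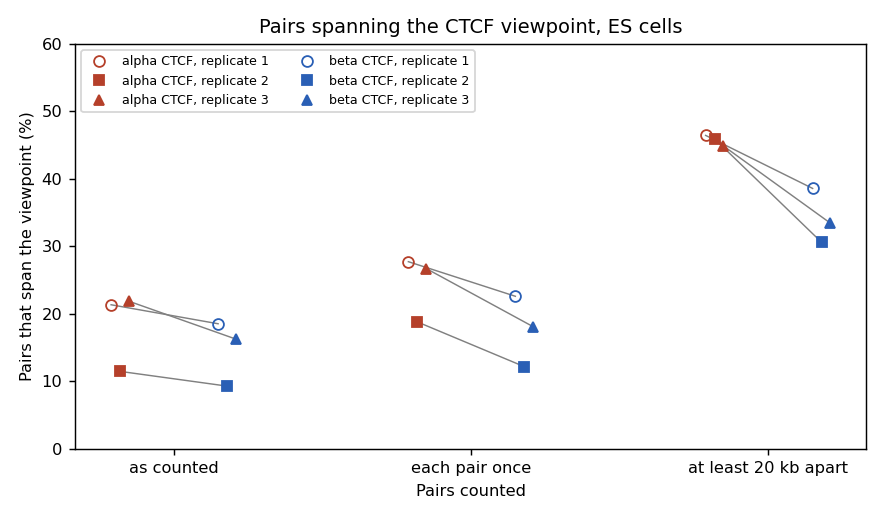
Share of pairs that span the viewpoint in percent for all pairs as counted, for each fragment pair counted once, and for fragments at least 20 kb apart, with alpha (red) left of beta (blue) and grey lines joining the values of 1 ES replicate. All lines fall from alpha to beta, and the sites are most clearly apart for fragments at least 20 kb apart. That last filter removes every same-side pair with both fragments within 20 kb of the site.

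With the distance band and side of both fragments held, pairs in different bands kept to one side at both loci. Pooled over all bands, they did so more at beta in 3 of 3 replicates. Pairs with both fragments in one band were left out, but neighbours across a band edge remained. The log2 odds ratio of same side against opposite side, pooled over pairs of distance bands by the Mantel-Haenszel method, was 1.01, 1.25 and 1.04 at alpha and 1.20, 2.05 and 1.52 at beta. The paired difference was -0.49 ± 0.31 (SD, n = 3, exact sign-flip p = 0.25), with an overlap of alpha replicate 2 and beta replicate 1, and -0.64 without replicate 1. Among pairs at least 20 kb apart it was 0.34 ± 0.10 at alpha and 1.35 ± 0.50 at beta, and the replicates no longer overlapped. As above, that filter removes all near same-side pairs but keeps some spanning ones. Its part in this change was not tested. The order did not hold at every distance: with both fragments beyond 100 kb the log2 odds ratio was 3.17, 2.23 and 2.91 at alpha, against 2.40, 2.92 and 2.59 at beta. The clearest distance was a farther fragment at 20 to 50 kb, where 42.2%, 36.6% and 40.6% of pairs spanned the alpha site and 23.6%, 9.48% and 19.0% the beta site. At 50 to 100 kb the means were 40.2% ± 1.71 and 38.2% ± 6.77 (SD, n = 3), with overlap.

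The side of the more distant fragment was also counted by the side of the nearer one, with no correction for the lean of each site. Among pairs in different distance bands whose nearer fragment was on the far side, the more distant fragment was on that side too in 56.7%, 58.5% and 57.5% of pairs at alpha, against 60.7%, 80.9% and 73.8% at beta. When the nearer fragment was on the gene side, the more distant one was also there in 61.3%, 64.3% and 60.9% of pairs at alpha and 62.8%, 57.4% and 52.8% at beta. The alpha and beta values were apart in the first case and overlapped in the second. Beyond 200 kb the beta site leaned to the far side for all contacts, as given above, so these shares do not separate sidedness from that lean. Spanning pairs also reached farther at beta, with a median separation of 372, 665 and 644 kb, where alpha had 99.8, 97.4 and 120.0 kb.

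For pairs of distance bands, edgeR with the replicate as a block called 43 of 171 band pairs higher at alpha (25.1% of band pairs) and 31 lower (18.1% of band pairs). Calls followed the distance of the fragments on either side. Among opposite-side band pairs within 100 kb, 19 of 25 were higher and 0 lower, and beyond 100 kb 11 of 16 were lower and 0 higher. Among band pairs on the far side, 11 of 15 were higher within 100 kb and 8 of 10 lower beyond it. On the gene side 7 of 15 were higher and 1 lower within 100 kb, and 7 of 10 were lower beyond it. With TMM factors or in DESeq2 the same groups leaned the same way, for example 19 and 21 of 25 higher for opposite-side pairs within 100 kb and 13 of 16 lower in both for those beyond it. Without replicate 3 edgeR called 0 band pairs, with 47 at an unadjusted p under 0.05.

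In contacts per 1000 pairs, spanning pairs within 100 kb numbered 121.6, 66.8 and 111.7 at alpha and 50.6, 10.4 and 16.5 at beta. Spanning pairs with both fragments beyond 100 kb numbered 10.9, 7.32 and 16.9 at alpha and 43.1, 34.9 and 65.5 at beta. Pairs with both fragments beyond 100 kb on the far side numbered 78.3, 94.4 and 96.6 at alpha, against 209.9, 379.7 and 359.0 at beta. In each of these 3 kinds the alpha and beta values were apart.

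The largest log2 difference was 5.26 (SE 0.43, adjusted p = 2.66e-05 in edgeR) for pairs with both fragments at 1 to 5 kb on the far side, with 59.0, 93.0 and 52.9 pairs per 1000 at alpha and 3.70, 1.61 and 0.834 at beta. Pairs with both at 5 to 10 kb on the far side differed by 4.66 (SE 0.54). Pairs joining 20 to 50 kb with 5 to 10 kb on that side differed by 4.54 (SE 1.11), with beta replicate 2 at 0 counts. The largest in the other direction joined the far side at 1000 to 2000 kb with the gene side at 100 to 200 kb, at 0.376, 0.0876 and 0.546 pairs per 1000 at alpha and 2.61, 2.21 and 6.62 at beta, a log2 difference of -3.60 (SE 0.63). The same far band with 1000 to 2000 kb on the gene side stood at -3.35 (SE 0.75), and with 100 to 200 kb on the far side at -3.23 (SE 0.76). All 6 of these calls were lost without replicate 3, with log2 values between -3.79 and 4.90.

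**Figure D5:**
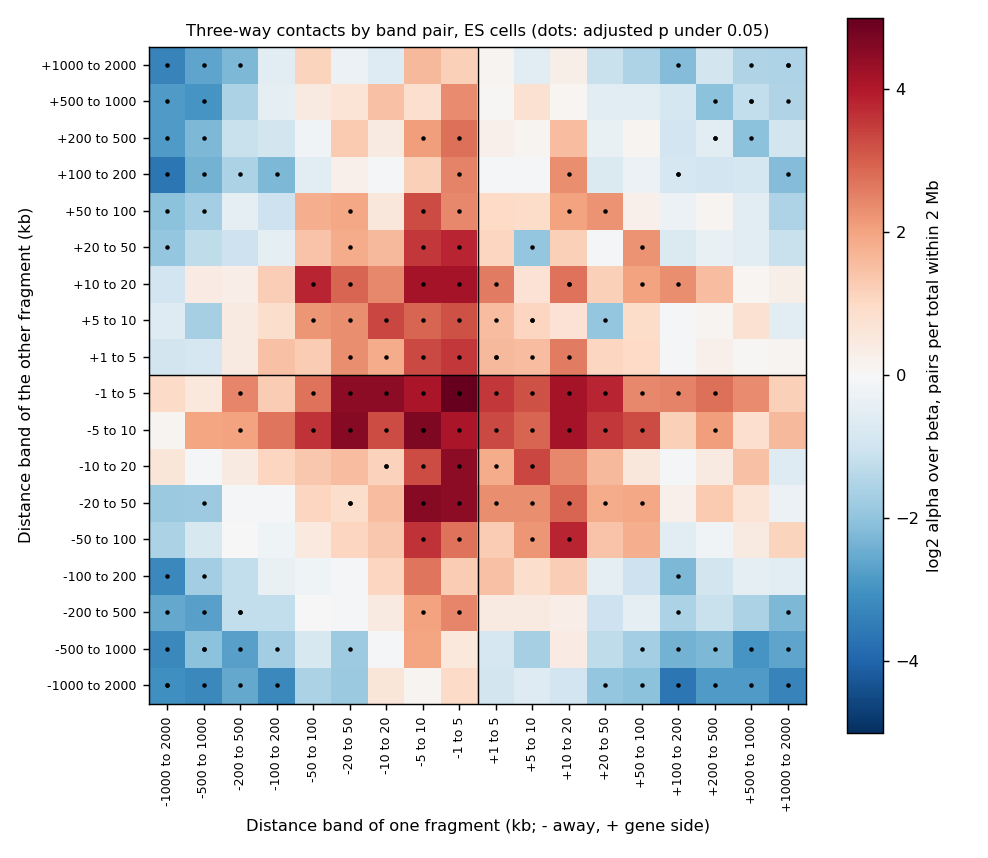
Log2 ratio of alpha over beta for pairs of fragments by the signed distance bands in kb of both fragments (minus for the far side, plus for the gene side), relative to all pairs within 2 Mb, with dots at band pairs past an adjusted p of 0.05 in edgeR. Red squares, higher at alpha, fill the centre around the viewpoint, and blue squares, lower at alpha, fill the corners of distant pairs.

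The totals split the same way. Pairs with both fragments within 2 Mb made up 38.2%, 52.7% and 40.6% of the alpha tables and 26.4%, 46.4% and 28.6% of the beta tables, a difference of 10.02 ± 3.21 percentage points (SD, n = 3, exact sign-flip p = 0.25). Pairs with neither fragment listed on the chromosome of the viewpoint made up 33.2%, 23.7% and 29.2% at alpha and 45.0%, 24.2% and 37.0% at beta. Alpha was lower in 3 of 3 replicates, by -6.72 ± 5.76 percentage points (SD, n = 3), and in replicate 2 the gap was -0.489. In erythroid cells the second difference was -21.3 points, and ES and erythroid replicate differences did not overlap (exact permutation p = 0.1). Coordinates of fragments listed on other chromosomes followed the fragment boundaries of the viewpoint's chromosome. Where they overlapped its fragments, 0 of 24114 at alpha and 0 of 38120 at beta crossed a boundary. Their chromosome labels may be wrong, so this share describes listed entries only.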

How the data were processed

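Per the labels, Tri-C libraries from NlaIII-digested chromatin were enriched for each viewpoint. Per the submitters' processing notes, Trim Galore, Bowtie and mm9 were used; versions and other steps are not given in the sources used here. The authors deposited whole-number counts per fragment pair in each library, 1 table per viewpoint. Here 2 of the 4 tables were analysed. The other 2 served to place R2, to check replicate 1 and to add to the fragments listed at each locus. Technical replicates were summed into 3 ES replicates. Members, elements, bands and tests were chosen with earlier results of these data known.

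Signed distance was taken from the middle of the viewpoint gap to the fragment midpoint, and fragments within 1 kb were left out. Off-chromosome fragments were used only as a share and to match entries between libraries, because their positions followed the fragment boundaries of the viewpoint's chromosome. Shares, slopes and odds ratios were compared by exact sign-flip tests over 3 pairs. Bins (20 kb, at least 50 counts) and band pairs (at least 30 counts) were tested with edgeR 4.0.16 (quasi-likelihood, Benjamini-Hochberg), with the total within 2 Mb as library size and the replicate as a block. The pairing comes from the shared libraries; deviations of same-numbered samples over distance bins correlated at 0.02, 0.03 and 0.08. Named bins and band pairs were up to 3 per direction with the largest change among calls whose groups did not overlap, distant bins those highest against their surroundings in the weakest replicate, and alpha elements 3 kb windows placed by their usual distance from Hba-x. On simulated data with 40 features changed by 2 on the log2 scale, 25 of 40 changed bins and 13 of 40 changed band pairs were recovered. Of 200 bins in all, 2 unchanged ones were called, and of 171 band pairs in all, 0 unchanged ones were. Alternatives included DESeq2 1.42.0, TMM factors, counting each pair once and leaving replicates out. R 4.3.3, Python 3.11.15 and pandas 2.3.3 were used.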

Additional observations from a re-analysis of the deposited data

Results flagged for a closer look

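The difference between the sites in the gene side share beyond 200 kb had opposite signs in the 2 cell types in every replicate. At 200 to 500 kb the alpha minus beta difference was 10.4 ± 6.40 percentage points in ES cells and -14.2 ± 2.93 in erythroid cells (SD, n = 3; permutation of the cell type labels, exact two-sided p = 0.1, the lowest that 3 against 3 can give). At 500 to 1000 kb it was 14.3 ± 8.02 in ES cells and -26.02 ± 1.63 in erythroid cells (exact permutation p = 0.1). At 1000 to 2000 kb it was 21.2 ± 5.08 in ES cells and -3.64 ± 2.10 in erythroid cells (exact permutation p = 0.1).

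The sites differed in how far their own shares moved. At 200 to 500 kb the gene side took 55.5% ± 0.606 in ES cells and 37.3% ± 1.46 in erythroid cells at alpha, and 45.1% ± 6.00 in ES cells and 51.6% ± 4.39 in erythroid cells at beta (SD, n = 3), where the beta values of the cell types overlapped. At 500 to 1000 kb the gene side took 49.02% ± 1.70 in ES cells and 29.4% ± 3.39 in erythroid cells at alpha, and 34.7% ± 8.95 in ES cells and 55.4% ± 4.85 in erythroid cells at beta (SD, n = 3), with no overlap at either site. At 1000 to 2000 kb it took 55.1% ± 1.86 in ES cells and 33.3% ± 4.77 in erythroid cells at alpha, and 33.9% ± 3.96 in ES cells and 36.9% ± 3.36 in erythroid cells at beta (SD, n = 3), with overlap at beta. The ES and erythroid cells come from different strains, so strain and cell type are confounded and cannot be told apart. The ES difference was larger without replicate 1, at 14.1, 18.8 and 24.1 percentage points in the 3 bands.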

How the results depend on the processing

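The gene side share over 2 Mb took either sign, between -21.5 and 4.55 percentage points, while the other shares, slopes and odds ratios kept theirs under the alternatives run. The distance bins gave 79 calls, 46 to 68 with a replicate left out, 52 with TMM factors (21 higher and 31 lower, against 6 and 73), 49 with the first technical replicate alone, 124 in bins of 10 kb, 73 in DESeq2 (34 higher and 39 lower) and 81 without the replicate block. The library size of the whole table gave 9 higher and 46 lower. The band pairs gave 74 calls, 0 to 78 with a replicate left out, 45 with the first technical replicate alone and 53 without the replicate block. Paired and unpaired tests of single values had smallest p-values of 0.25 and 0.1, so neither could pass 0.05.

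Counting each fragment pair once moved the gene side share over 2 Mb to 4.55 percentage points, that within 200 kb to -8.22 and the spanning share to 6.797. Leaving out fragments within 5 kb moved the share within 200 kb to -11.0. Weighting by listed fragments moved the near share to 6.42, the gene side slope to -0.278, and the gene side shares over 2 Mb and within 200 kb to -21.5 and -22.9. Pairs at least 20 kb apart moved the spanning share to 11.6 and the log2 odds ratio to -1.01. Without the library that shared most with erythroid libraries, 54 bins and 72 band pairs were called. The bin at -1960 kb lost its call without any 1 replicate (3.17 to 5.41). Among element windows, R1 stood at -0.38 with pairs counted once. With 44800 to 276759 counts per beta library, fragments with few expected counts set the limit in replicates 2 and 3.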

Other observations

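The fragments that set ES replicate 1 apart at the beta locus lay on both sides of the site. Each fragment pair was again counted once per library. Scaling replicate 1 to the summed pairs of replicates 2 and 3 put 409 fragments within 200 kb at 10 or more pairs. Of them, 44 had 2 or fewer. Of these 44, 21 lay on the far side, out to -99.5 kb, and 23 on the gene side, out to 103.7 kb. They took 2063 pairs in replicate 1, 22 in replicate 2 and 33 in replicate 3, and each had at least 64 pairs in erythroid cells. At the alpha site the same scaling put 1025 fragments at 10 or more pairs, of which 5 had 2 or fewer.

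Profiles over the 200 bins of 20 kb correlated between replicates at 0.88, 0.93 and 0.87 at alpha and 0.85, 0.85 and 0.84 at beta, across bins that share a library and a decay with distance.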
